A study of Mus musculus with 4 samples.

Results

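The CC chemokine genes of mouse chromosome 11 were followed in whole retinas after toxin injury. The set comprised 10 genes, Ccl2, Ccl3, Ccl4, Ccl5, Ccl6, Ccl7, Ccl8, Ccl9, Ccl11 and Ccl12, taken by symbol from RNA-seq tables that cover 22558 gene symbols. Each of the 10 had a usable value in all 4 libraries. The injured retinas came from mice with 1 Msi1-CreERT2 allele and 1 R26R-DTA allele (DTA libraries), taken at day 1 and at day 5 after injury. Control retinas came from mice with 1 R26R-DTA allele and no Cre, and were labelled with the same 2 days. CreERT2 is a Cre recombinase that acts only when a ligand is bound, here under the name of Msi1, the gene of an RNA-binding protein of neural progenitors and glia. R26R-DTA yields diphtheria toxin fragment A where Cre has acted, and the toxin stops protein synthesis. The controls thus carried the toxin allele as well, and Cre activity and toxin cannot be told apart in these groups. All mice were about 8 weeks old and on a mixed C57BL/6 and 129 background. The sources used here do not give the ligand, the cells in which Cre acted or the number of mice per library.

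CC chemokines are small secreted proteins that guide leukocytes along a gradient by binding G protein-coupled receptors on them. Ccl2, Ccl7 and Ccl12 act on Ccr2 and draw monocytes out of the blood, Ccl3, Ccl4 and Ccl5 draw macrophages and T cells, Ccl11 (eotaxin) acts on Ccr3 of eosinophils, and mouse Ccl8 acts on Ccr8. Ccl6 and Ccl9 are rodent ligands of Ccr1 that macrophages make without stimulation. In the retina, Ccl2 is known as a product of stressed Müller glia and activated microglia, and its transcription is switched on by NF-kappa B, AP-1 and STAT factors.

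Promoter sequences were found in the RefSeq table (GRCm38.p6) for 5 of the 10 genes, Ccl3, Ccl6, Ccl8, Ccl9 and Ccl12, and not for Ccl2, Ccl4, Ccl5, Ccl7 and Ccl11. Those of Ccl12 and Ccl8 are shown because these genes are neighbours, the first with transcripts in both DTA libraries and the second listed at 0 in all 4 libraries. Those of Ccl3 and Ccl9 are shown because Ccl3 was above 0 in the DTA libraries and listed at 0 in the controls, whereas Ccl9 was present in all 4 libraries between 0.544 and 0.861 FPKM. Each runs 5′ to 3′ on the gene's own strand, from 250 bases before the annotated start to 50 bases after it. The positions are chr11:82101595-82101894 (+) for Ccl12, chr11:82114935-82115234 (+) for Ccl8, chr11:83649329-83649628 (−) for Ccl3 and chr11:83578587-83578886 (−) for Ccl9. Capitals mark matches to the motifs searched.
Ccl12: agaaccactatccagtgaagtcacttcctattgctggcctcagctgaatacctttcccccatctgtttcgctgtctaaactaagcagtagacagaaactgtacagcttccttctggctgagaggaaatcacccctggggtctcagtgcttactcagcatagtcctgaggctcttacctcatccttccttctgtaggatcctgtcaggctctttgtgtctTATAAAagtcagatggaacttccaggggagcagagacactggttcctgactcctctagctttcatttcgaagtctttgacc
Ccl8: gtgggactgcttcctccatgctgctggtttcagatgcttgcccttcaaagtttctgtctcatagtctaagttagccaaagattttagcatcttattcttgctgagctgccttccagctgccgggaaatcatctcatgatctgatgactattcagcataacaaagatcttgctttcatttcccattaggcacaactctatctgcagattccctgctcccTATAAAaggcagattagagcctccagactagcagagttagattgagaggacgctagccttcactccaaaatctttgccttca
Ccl3: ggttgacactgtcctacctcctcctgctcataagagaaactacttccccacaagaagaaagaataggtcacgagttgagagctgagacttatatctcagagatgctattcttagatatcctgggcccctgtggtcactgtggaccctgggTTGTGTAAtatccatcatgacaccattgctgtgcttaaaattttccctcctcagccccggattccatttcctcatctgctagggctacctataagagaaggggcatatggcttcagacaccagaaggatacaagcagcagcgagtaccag
Ccl9: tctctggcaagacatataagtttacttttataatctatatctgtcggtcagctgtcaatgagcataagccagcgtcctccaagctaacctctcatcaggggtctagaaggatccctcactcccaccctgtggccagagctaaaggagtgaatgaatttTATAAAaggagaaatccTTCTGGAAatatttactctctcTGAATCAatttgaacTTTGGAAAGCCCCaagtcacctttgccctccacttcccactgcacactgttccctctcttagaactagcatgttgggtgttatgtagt

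The motifs searched were the TATA box (TATAAA, own strand only) and, on both strands, the AP-1 site TGANTCA, the C/EBP site TTNNGNAA, the interferon response core (GAAA, a gap of 2 bases, GAAA) and the kappa B consensus. Ccl12 and Ccl8 each held 1 TATA box, which begins 31 bases before the start in Ccl12 and 32 bases before it in Ccl8. That motif stood in 8.32% of the 32841 mouse promoters of the table. The 300 bases of Ccl3 held 1 C/EBP match, 100 bases before the start, a motif found in 40.7% of promoters. Ccl9 held the most matches, a TATA box at −92, C/EBP matches at −75 and −38, an AP-1 match at −53 and a kappa B match at −35. The kappa B match overlaps the second C/EBP match, and 8.46% of promoters hold a kappa B match and 7.81% an AP-1 match. Ccl6 held none of the motifs. The interferon response core, present in 3.44% of promoters, matched in none of the 5. These matches are letters in a window, not known binding sites.

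Levels are in FPKM, a read density corrected for transcript length and for the size of the library. The estimated depths were 98.8 M fragments for DTA and 73.9 M for control at day 1, and 28.8 M for DTA and 35.6 M for control at day 5. The DTA table of day 1 covers 5799 symbols from part of the genome, among them all 10 chemokines, so genes of other chromosomes have no value there. Sag, the rod marker of a list of 5 with a value in the day 1 DTA table, stood at 1412 FPKM in DTA and 1149 FPKM in control at day 1 and at 1444 FPKM in DTA and 1559 FPKM in control at day 5. The rod markers Gnat1 (739 FPKM in DTA and 6678 FPKM in control) and Nrl (153 FPKM in DTA and 779.9 FPKM in control) were called lower in DTA at day 5. Libraries also differed in ways the groups do not explain. Xist, a female marker, stood at 60.4 FPKM in DTA and 53.7 FPKM in control at day 5 but at 0.00596 FPKM in the day 1 control, and the day 1 DTA table holds no X genes. The summed FPKM of the 4 lens genes present in all tables was 570 in DTA and 353 in control at day 1, and 2.37 in DTA and 40.9 in control at day 5. Whether these differences touch the chemokines was not tested.

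Each group is 1 library, so no standard deviation within a group can be given, and no test was made. Calls of higher or lower needed log2(FPKM + 1) to differ by at least 1 and the gene to reach 5 FPKM in one of the libraries compared. For DTA against control and between the DTA libraries, the difference also had to be larger in size than that between the 2 controls. Because these transcripts are scarce in retina, a second call used a floor of 1 FPKM. The difference on this scale understates the change of low genes. Fewer cells of a type and less RNA per cell cannot be told apart in whole tissue.

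Chemokine transcripts were close to absent from the control retinas and present in the DTA retinas of both days. Summed over the 10 genes, the level was 19.2 FPKM in DTA against 1.28 FPKM in control at day 1, and 59.9 FPKM in DTA against 0.847 FPKM in control at day 5. In DTA 4 genes reached 1 FPKM at day 1 and 6 at day 5, and no control library had a gene at that level. Most of the DTA sum came from 2 genes. Ccl2 and Ccl5 together made up 71.0% of it in DTA at day 1 and 79.3% in DTA at day 5, against 8.67% in control at day 1 and 9.17% in control at day 5.

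**Figure D1:**
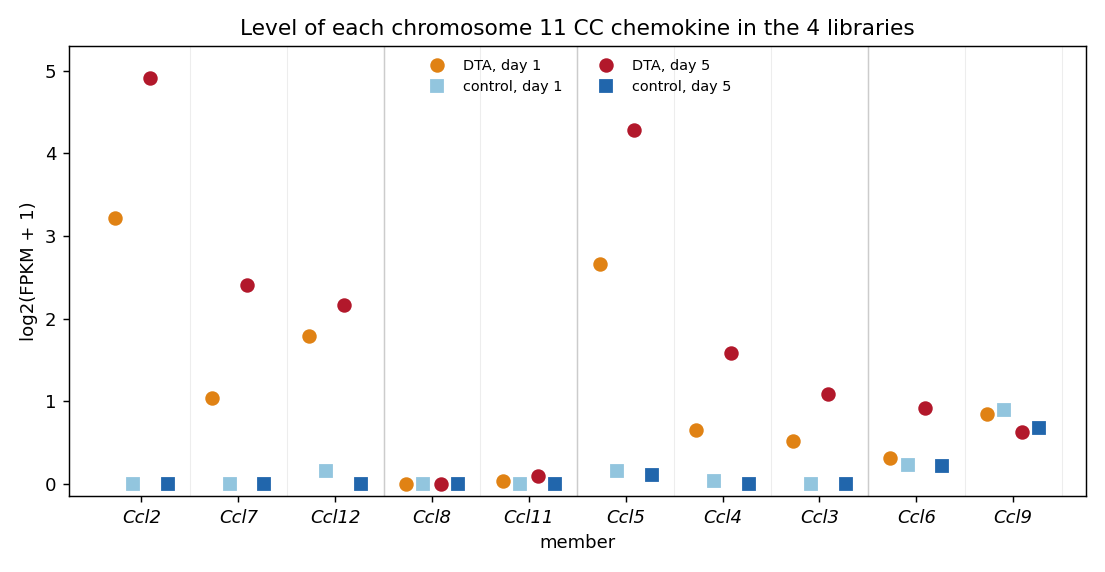
Level of each chemokine as log2(FPKM + 1) in the 4 libraries, 1 point per library, ordered by role; circles are DTA and squares control. Ccl2 and Ccl5 are the highest circles at both days, Ccl8 lies at 0 in all libraries, and the 4 points of Ccl9 lie close together.

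The Ccr2 ligands had the largest total. Ccl2, the main monocyte attractant (chr11:81849079-81850954, mm9, + strand, 3 exons), stood at 8.32 FPKM in DTA and was listed at 0 in control at day 1, and stood at 29.1 FPKM in DTA and was listed at 0 in control at day 5. Both DTA libraries thus lay above both controls. The share of all genes with this order was not computed. On log2(FPKM + 1) the difference was 3.22 at day 1 and 4.91 at day 5. No fold is given against 0, but 1 fragment on this transcript would be worth 0.0167 FPKM in control at day 1 and 0.0346 FPKM in control at day 5. The DTA levels rest on about 522 fragments at day 1 and 534 at day 5, as estimated from the deposited bounds and the depth.

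Ccl7, which draws monocytes through Ccr2 and also binds other receptors, lies next to Ccl2 (chr11:81859214-81861025, + strand). It stood at 1.05 FPKM in DTA against 0 in control at day 1, and at 4.31 FPKM in DTA against 0 in control at day 5. Its differences were 1.04 at day 1 and 2.41 at day 5, from about 71 fragments in DTA at day 1 and 85 in DTA at day 5. Ccl12, another Ccr2 ligand of the mouse (chr11:81915347-81916901, + strand), stood at 2.45 FPKM in DTA and 0.109 FPKM in control at day 1, and at 3.47 FPKM in DTA and 0 in control at day 5. The day 1 control value of Ccl12 corresponds to about 4 fragments. Differences of Ccl12 were 1.64 at day 1 and 2.16 at day 5. For both genes, each DTA library exceeded each control library, an order whose share over all genes was not computed.

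The 3 Ccr2 ligands together reached 11.8 FPKM in DTA against 0.109 FPKM in control at day 1, and 36.9 FPKM in DTA against 0 in control at day 5. Ccl2 made up 43.3% of the sum of all 10 chemokines in DTA at day 1 and 48.6% in DTA at day 5. Ccl12 made up 12.8% of that sum in DTA at day 1 and 5.80% in DTA at day 5. Within the trio, Ccl12 stood above Ccl7 in DTA at day 1, while at day 5 Ccl7 had the higher FPKM, with deposited bounds that overlapped, 2.67 to 4.70 FPKM for Ccl7 and 1.58 to 3.62 FPKM for Ccl12.

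The other neighbours of Ccl2 on the chromosome had little or no signal. Ccl8 (chr11:81928687-81930301, + strand), a Ccr8 ligand in the mouse that attracts T helper cells, was listed at 0 in all 4 libraries. Ccl11, the eotaxin that draws eosinophils (chr11:81871334-81876457, + strand), stood at 0.0209 FPKM in DTA and 0 in control at day 1, and at 0.0720 FPKM in DTA and 0 in control at day 5. The lower bound of Ccl11 was 0 in both DTA libraries, and 1 fragment is worth 0.00936 FPKM in DTA at day 1 and 0.0320 FPKM in DTA at day 5. Ccl11 therefore lies near the least that these depths could show. Its differences were 0.03 at day 1 and 0.10 at day 5.

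Among Ccl3, Ccl4 and Ccl5, the last had the highest level in both DTA libraries. Ccl5, also called RANTES, draws T cells and monocytes (chr11:83339281-83344020, − strand). It stood at 5.32 FPKM in DTA and 0.111 FPKM in control at day 1, and at 18.4 FPKM in DTA and 0.0777 FPKM in control at day 5. Both DTA values lay far above both control values, an order whose share over all genes was not computed. The differences were 2.51 at day 1 and 4.17 at day 5. About 187 fragments lay behind the DTA value of day 1 and 189 behind that of day 5, against about 4 in the day 1 control.

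Ccl4, a macrophage inflammatory protein that draws T cells and monocytes (chr11:83476086-83478185, + strand), stood at 0.577 FPKM in DTA and 0.0266 FPKM in control at day 1, and at 1.99 FPKM in DTA and 0 in control at day 5. Ccl3, a macrophage inflammatory protein that acts on Ccr1 (chr11:83461345-83462880, − strand), stood at 0.434 FPKM in DTA and 0 in control at day 1, and at 1.12 FPKM in DTA and 0 in control at day 5. For both genes the DTA libraries were the higher ones at each day, at a low level. How many of all genes show that order was not computed. The differences of Ccl4 were 0.62 at day 1 and 1.58 at day 5, and those of Ccl3 were 0.52 at day 1 and 1.08 at day 5. The estimated fragments of Ccl4 were 32 in each DTA library, and those of Ccl3 were 32 in DTA at day 1 and 23 in DTA at day 5. Together Ccl3, Ccl4 and Ccl5 reached 6.33 FPKM in DTA against 0.138 FPKM in control at day 1, and 21.5 FPKM in DTA against 0.0777 FPKM in control at day 5.

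The rodent Ccr1 ligands Ccl9 and Ccl6 had the highest levels among the chemokines in both control libraries. Ccl9, a chemokine made by resting macrophages (chr11:83386419-83392138, − strand, 4 exons), stood at 0.798 FPKM in DTA and 0.861 FPKM in control at day 1, and at 0.544 FPKM in DTA and 0.604 FPKM in control at day 5. DTA lay slightly below control at each day, by −0.05 at day 1 and −0.06 at day 5, and the deposited bounds of DTA and control overlapped at both days. The difference between the 2 controls was larger, −0.21 for day 5 minus day 1. Ccl9 made up 4.15% of the chemokine sum in DTA and 67.2% in control at day 1, and 0.908% in DTA and 71.3% in control at day 5.

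Ccl6, a macrophage chemokine next to Ccl9 (chr11:83401388-83406589, − strand, 4 exons), stood at 0.243 FPKM in DTA and 0.173 FPKM in control at day 1, and at 0.889 FPKM in DTA and 0.165 FPKM in control at day 5. Day 5 DTA is thus the high library, while the day 1 DTA value lies near the controls. Its bounds at day 1, 0.152 to 0.329 FPKM in DTA and 0.0932 to 0.246 FPKM in control, overlapped, and those at day 5, 0.545 to 1.22 FPKM in DTA and 0.0711 to 0.267 FPKM in control, did not. The differences were 0.08 at day 1 and 0.70 at day 5. The sum of Ccl6 and Ccl9 was 1.04 FPKM in DTA and 1.03 FPKM in control at day 1, and 1.43 FPKM in DTA and 0.770 FPKM in control at day 5.

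Counted by the rule, DTA retinas of day 1 had 2 of the 10 chemokines higher at the floor of 5 FPKM, Ccl2 and Ccl5, where 0.933% of 5785 genes were called higher. At the floor of 1 FPKM, 4 of 10 were higher, with Ccl7 and Ccl12 added, against 1.24% of all genes. At day 5, the same rule called Ccl2 and Ccl5 higher, where 2.96% of 22541 genes were called higher. The floor of 1 FPKM called 6 of 10 at day 5, adding Ccl3, Ccl4, Ccl7 and Ccl12, against 4.12% of all genes. None of the 10 was called lower at either day or floor, where 0.277% of genes at day 1 and 0.776% at day 5 were called lower at the floor of 5 FPKM, and 0.328% at day 1 and 0.856% at day 5 at the floor of 1 FPKM. All 10 lay below 1 FPKM in both controls, so a fall of 1 on this scale was not possible for them. The median difference of the 10 genes was 0.57 at day 1, beside 0.0039 over all genes, and 1.33 at day 5, beside 0.06 over all genes. In each of these comparisons 8 of the 10 lay above 0, Ccl9 below it and Ccl8 at it. The share of all genes above 0 was not computed, and the medians over all genes lay above 0 as well. One limit touches the day 1 count: the deposited bounds of Ccl5, 2.90 to 4.22 FPKM, lie below its FPKM of 5.32, and with the midpoint of the bounds in place of FPKM only Ccl2 was called. The 2 controls differ in day and in Xist, and the spread between mice of 1 group is unknown.

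**Figure D2:**
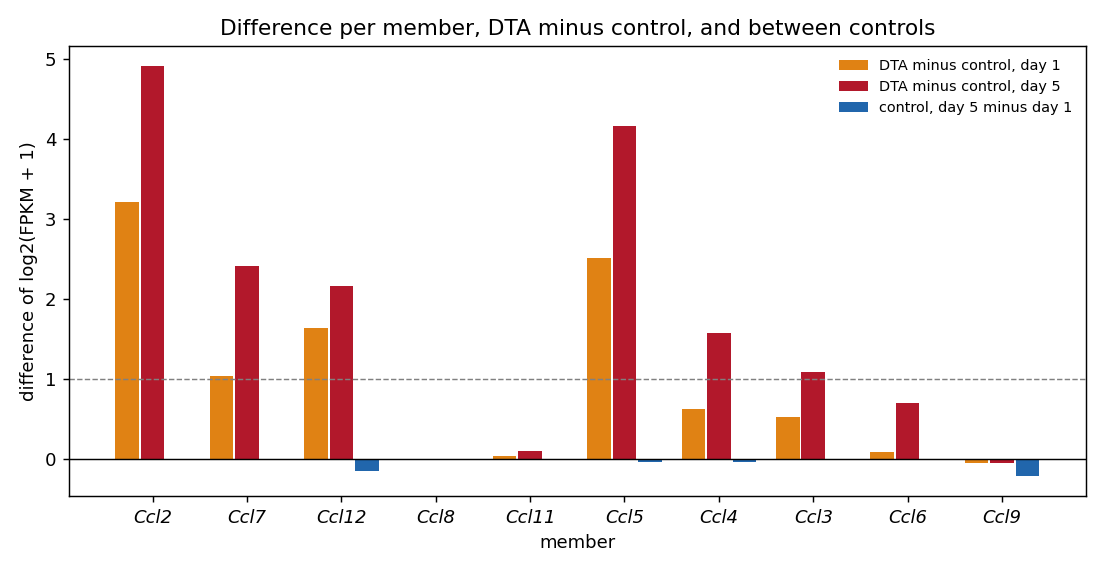
Difference of log2(FPKM + 1) per chemokine for DTA minus control at day 1, DTA minus control at day 5 and control day 5 minus control day 1; the dashed line marks a difference of 1. Bars of Ccl2, Ccl7, Ccl12 and Ccl5 pass the line at both days, those of Ccl4 and Ccl3 at day 5, and no bar between the controls reaches it.

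Between the 2 injured libraries, the level of most of the chemokines was higher at day 5. Ccl2 was 3.50-fold higher in DTA at day 5 than in DTA at day 1, Ccl5 3.46-fold, Ccl7 4.09-fold and Ccl12 1.42-fold, the genes with at least 1 FPKM in both. On log2(FPKM + 1) these were differences of 1.69 for Ccl2, 1.62 for Ccl5, 1.37 for Ccl7 and 0.37 for Ccl12. The differences of the others were 0.92 for Ccl4, 0.60 for Ccl6, 0.56 for Ccl3, 0.07 for Ccl11, 0 for Ccl8 and −0.22 for Ccl9. The folds rest on the scaling to library size, with depths of 98.8 M fragments in DTA at day 1 and 28.8 M in DTA at day 5. Estimated fragments at day 1 and day 5 were 522 and 534 for Ccl2, 187 and 189 for Ccl5, 71 and 85 for Ccl7, and 90 and 40 for Ccl12. Ccl2 and Ccl5 were called higher at the floor of 5 FPKM, where 1.16% of 5787 genes were called higher, and Ccl7 joined them at the floor of 1 FPKM, where the share was 1.78%. No chemokine was called lower, against 1.43% of genes at the floor of 5 FPKM and 1.66% at the floor of 1 FPKM. Only genes with at least 1 FPKM in DTA at day 1 could have been. The median of the 10 was 0.58, beside 0.04 over all genes. Between the control libraries no chemokine was called in either direction at either floor, and none could be, with all 10 below 1 FPKM in both. There, the shares of all 22532 genes were 0.355% higher and 0.71% lower at the floor of 5 FPKM, and 0.395% higher and 0.919% lower at the floor of 1 FPKM. In the controls 5 of the 10 genes lay at 0 and 5 slightly below it in day 5 minus day 1.

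The order of the FPKM levels in DTA at day 1 was Ccl2, Ccl5, Ccl12, Ccl7, Ccl9, Ccl4, Ccl3, Ccl6, Ccl11 and Ccl8. In DTA at day 5 it was Ccl2, Ccl5, Ccl7, Ccl12, Ccl4, Ccl3, Ccl6, Ccl9, Ccl11 and Ccl8. In both controls Ccl9 came first, followed by Ccl6 and then Ccl5. Deposited bounds of FPKM, which hold no spread between mice, separated Ccl2 (5.79 to 7.21 FPKM), Ccl5 (2.90 to 4.22 FPKM) and Ccl12 (1.27 to 2.12 FPKM) in DTA at day 1. These bounds lie wholly below the FPKM of the same genes, 8.32 for Ccl2, 5.32 for Ccl5 and 2.45 for Ccl12. They therefore do not give the error of those FPKM. The bounds overlapped between each neighbouring pair from Ccl7 to Ccl6 in the DTA library of day 1. In DTA at day 5 the bounds separated Ccl2 (20.3 to 25.3 FPKM) from Ccl5 (10.03 to 14.6 FPKM) and Ccl5 from Ccl7. There too, the bounds of Ccl2 and Ccl5 lie below their FPKM, 29.1 and 18.4. The day 5 bounds overlapped between each neighbouring pair from Ccl7 to Ccl9.

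The genes lie in 2 runs of 5. The first run, Ccl2, Ccl7, Ccl11, Ccl12 and Ccl8, spans 81.2 kb on the + strand, and the second, Ccl5, Ccl9, Ccl6, Ccl3 and Ccl4, spans 139 kb. The stretch between the runs is 1409 kb long. At the floor of 5 FPKM each run held 1 gene called higher at each day. The median difference of the first run was 1.04 at day 1 and 2.16 at day 5, and that of the second was 0.52 at day 1 and 1.08 at day 5. At the floor of 1 FPKM at day 5, Ccl11, which was not called, lies between Ccl7 and Ccl12, which were, and Ccl9 and Ccl6, which were not called, lie between Ccl5 and Ccl3, which were.

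The 32 other genes between the runs had a median difference of 0.07 at day 1, with a range of −0.26 to 1.17, and none was called. At day 5 their median was 0.14, with a range of −0.32 to 3.91, and 1 was called higher. That gene, the small nucleolar RNA Snord7, stood at 32.5 FPKM in DTA and 13.9 FPKM in control at day 1, and at 14.0 FPKM in DTA and 1.74e-05 FPKM in control at day 5. Ccl1, a Ccr8 ligand and the CC chemokine between the runs, stood at 0.0301 FPKM in DTA at day 1 and was listed at 0 in the other 3 libraries. Inside the second run lies E230016K23Rik, on the strand opposite to Ccl6 and overlapping its locus but none of its exons. It stood at 0.0510 FPKM in DTA and 0.0346 FPKM in control at day 1, and at 0.318 FPKM in DTA and 0.00608 FPKM in control at day 5. The sources used here do not say whether fragments were counted by strand. Among the 45 pairs of chemokine transcripts, the longest identical stretch was 25 bases, between Ccl6 and Ccl9, followed by 23 bases between Ccl2 and Ccl7. Similarity with mismatches was not measured.

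**Figure D3:**
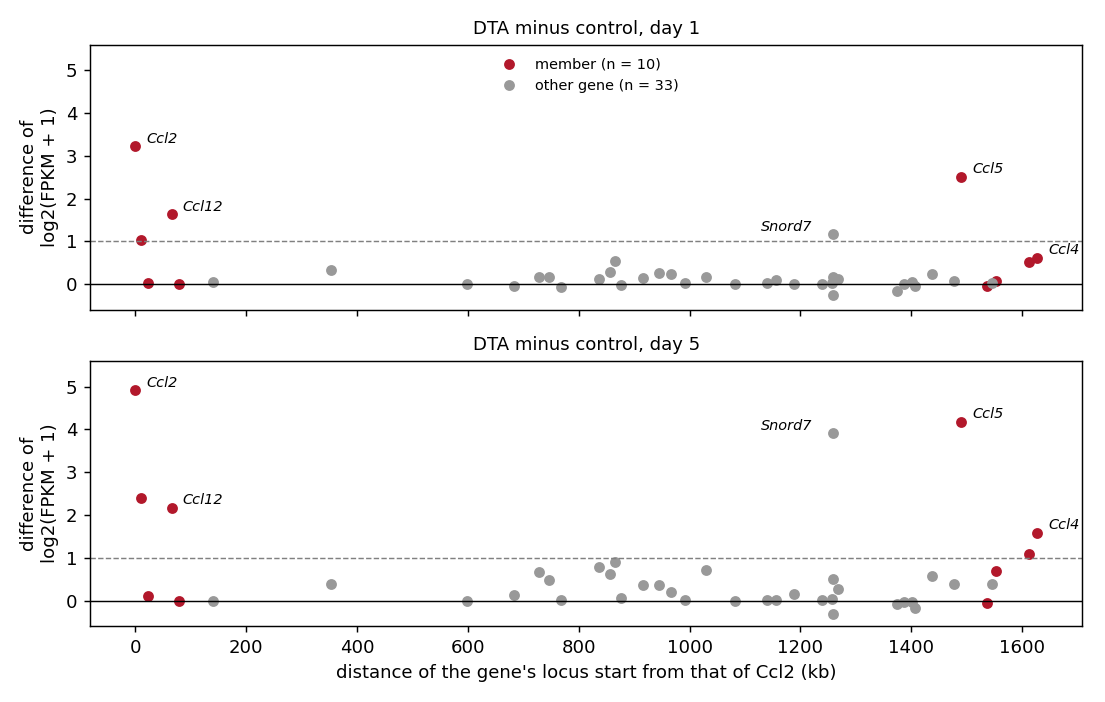
Difference of log2(FPKM + 1), DTA minus control, of the 10 chemokines and the 33 other genes of the stretch against the distance of each locus from Ccl2 in kb, at day 1 above and day 5 below; the dashed line marks a difference of 1. The chemokines that pass the line lie at the 2 ends, and among the other genes only Snord7 passes it at either day.

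The other 13 CC chemokine genes of the tables lie between the runs or on other chromosomes. None was called in DTA against control at either floor or day. Only 3 of them have a value in DTA at day 1, with a median difference of −0.03, and over all 13 the median at day 5 was 0.19. Ccl27a, a skin chemokine, stood at 10.2 FPKM in DTA and 8.69 FPKM in control at day 5. Ccl25, a thymus and gut chemokine, stood at 2.87 FPKM in DTA and 1.57 FPKM in control at day 5. Ccl28, an epithelial chemokine, stood at 0.488 FPKM in DTA and 0.521 FPKM in control at day 1, and at 1.13 FPKM in DTA and 0.381 FPKM in control at day 5. Ccl21c, one of near-identical copies of a lymphoid chemokine, stood at 1.03 FPKM in DTA and 0.000503 FPKM in control at day 5, but at 1.40 FPKM in the day 1 control, so the controls differed by more than DTA and control did.

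Transcripts of the receptors were scarce. Of 12 CC receptor genes none reached 1 FPKM in any library and none was called, and the median difference at day 5 was 0.0079. Their summed FPKM at day 5 was 2.61 in DTA and 1.29 in control. Ccr2, the receptor of Ccl2, Ccl7 and Ccl12, stood at 0.0324 FPKM in DTA and 0.00788 FPKM in control at day 5. Ccr1, the receptor of Ccl6 and Ccl9 and of Ccl3, stood at 0.119 FPKM in DTA and 0 in control at day 5. Ccr3 and Ccr8, the receptors of Ccl11 and Ccl8, were listed at 0 in DTA and control at day 5. These receptor genes have no value in DTA at day 1. Darc, an atypical receptor that binds several of the chemokines without signalling, stood at 55.4 FPKM in DTA and 48.6 FPKM in control at day 1, and at 58.1 FPKM in DTA and 55.1 FPKM in control at day 5, and none of the 4 atypical receptor genes was called.

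A list of 19 genes held known inducers of chemokine transcription, NF-kappa B subunits and their targets. Of the 7 with a value in DTA at day 1, 2 were called higher and 0 lower, and the median difference was 0.57. Irf1, an interferon-induced transcription factor, stood at 27.5 FPKM in DTA and 1.52 FPKM in control at day 1, and at 30.9 FPKM in DTA and 1.40 FPKM in control at day 5. Fos, an AP-1 subunit, stood at 89.6 FPKM in DTA and 28.1 FPKM in control at day 1, and at 38.6 FPKM in DTA and 12.4 FPKM in control at day 5. Irf1 and Fos were called higher at both days. The NF-kappa B inhibitor and target Nfkbia stood at 21.6 FPKM in DTA and 14.3 FPKM in control at day 1, and at 30.3 FPKM in DTA and 11.9 FPKM in control at day 5, and was called at day 5 only; the difference between the days was not tested. Tnfaip3, a brake on NF-kappa B, stood at 78.1 FPKM in DTA and 77.9 FPKM in control at day 1, and at 65.5 FPKM in DTA and 91.6 FPKM in control at day 5.

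At day 5, 11 of the 18 genes of that list with a usable value were called higher and 0 lower, and the median difference was 1.43. Relb, an NF-kappa B subunit, stood at 19.0 FPKM in DTA and 0.907 FPKM in control, a difference of 3.39. Nfkb2, the partner of Relb, stood at 10.8 FPKM in DTA and 0.499 FPKM in control, a difference of 2.98. Jun, the AP-1 subunit, stood at 85.6 FPKM in DTA and 11.5 FPKM in control. The other genes called were Irf7 (2.05), Stat2 (1.86), Cebpb (1.71), Rela (1.16) and Nfkb1 (1.06), with the difference at day 5 in brackets. The cytokine genes were low. Il6 stood at 3.01 FPKM in DTA and 0 in control at day 5 and was called at the floor of 1 FPKM, Tnf at 0.553 FPKM in DTA and 0 in control, and Il1b at 0.195 FPKM in DTA and 0.0227 FPKM in control.

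Markers of phagocytes were also higher in DTA at day 5. Of 15 microglia and macrophage markers 10 were called higher at day 5, and 13 at the floor of 1 FPKM, with a median of 1.82 and a summed FPKM of 192 in DTA against 32.9 in control. At day 1 only 2 genes of that list have a value in DTA, and neither was called at either floor. Cd68, a lysosomal protein of phagocytes, stood at 1.92 FPKM in DTA and 0.982 FPKM in control at day 1, and at 13.6 FPKM in DTA and 1.52 FPKM in control at day 5. The difference of Cd68 at day 1 was 0.56, at a time when Ccl2 differed by 3.22 and Ccl5 by 2.51. Lyz2, a lysozyme of monocytes and macrophages, stood at 1.08 FPKM in DTA and 1.09 FPKM in control at day 1, and at 8.32 FPKM in DTA and 0.269 FPKM in control at day 5. The part of phagocyte number in the chemokine levels was not tested.

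Apart from Lyz2, markers of other leukocytes were low at day 5. Of 7 monocyte markers Lyz2 was the 1 called at day 5. Ly6c2, another monocyte marker, stood at 2.31 FPKM in DTA and 1.60 FPKM in control at day 5 and was not called. Plac8 stood at 0.127 FPKM in DTA and 0 in control at day 5, with Chi3l3 listed at 0 in both. The summed FPKM at day 5 of 7 neutrophil markers was 1.12 in DTA and 0.118 in control, and that of 10 T and NK cell markers was 0.229 in DTA and 0.124 in control. Cd3e, Cd3g, Gzma and Ncr1 were listed at 0 in DTA and control at day 5. The 4 B cell markers summed to 1.34 FPKM in DTA and 0.245 FPKM in control, and the 7 mast cell and eosinophil markers to 0.166 FPKM in DTA and 0.0455 FPKM in control at day 5. None of the neutrophil, T and NK, B, mast cell and eosinophil markers was called at day 5 at either floor, and of those with a value in DTA at day 1, which were 2 neutrophil, 2 T and NK, 1 B and 2 mast cell and eosinophil genes, none was called there. Among glia, Glul, the glutamine synthetase of Müller glia, stood at 550.0 FPKM in DTA and 1044 FPKM in control at day 1, and at 159 FPKM in DTA and 888 FPKM in control at day 5. Sox9, a transcription factor of Müller glia and the other gene of that list with a value in DTA at day 1, stood at 12.5 FPKM in DTA and 5.53 FPKM in control at day 1, where it was called higher, with a difference of 1.05, and differed by 0.47 at day 5. Of the 5 Müller glia markers 2 were called lower in DTA at day 5 and 0 higher. The part of these changes in the chemokine levels was not tested.

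**Figure D4:**
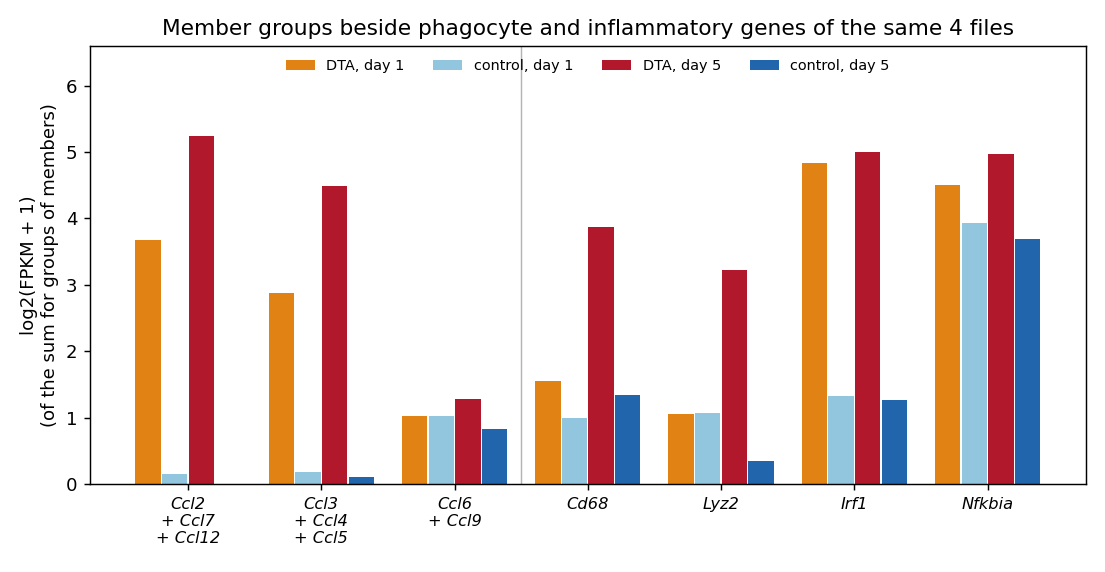
Levels as log2(FPKM + 1) in the 4 libraries of 3 groups of chemokines, summed, on the left and of 4 single genes on the right, 1 bar per library. The bars of the Ccr2 ligands and of Ccl3, Ccl4 and Ccl5 in DTA exceed control at both days. So do those of Irf1, Cd68 and Nfkbia, of which Cd68 and Nfkbia were called at day 5 only. The Lyz2 bar in DTA exceeds control at day 5 and not at day 1.

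The profiles most like those of Ccl2 and Ccl5, the 2 chemokines that reached 5 FPKM, were sought by Euclidean distance of log2(FPKM + 1) over the 4 libraries. The search covered the 5783 genes with a value in all 4, so genes without a value in DTA at day 1 could not appear. For Ccl2 the nearest were Mir496 at a distance of 0.25, Ccl5 at 0.87 and Mir135a-2 at 1.10. For Ccl5 they were Mir135a-2 at 0.67, Ccl2 at 0.87 and Mir432 at 0.91. RNAs as short as microRNAs are poorly measured in mRNA libraries. Without microRNA and small nucleolar RNA genes, a choice made after these values were seen, 5563 genes remained. Ccl2 was then nearest to Ccl5, to Socs3 at 1.93 and to Irgm1 at 1.97, and Ccl5 to Ccl2, to Irgm2 at 1.27 and to Egr2 at 1.54. Socs3, the feedback inhibitor of cytokine signalling, stood at 15.4 FPKM in DTA and 0.941 FPKM in control at day 1, and at 31.8 FPKM in DTA and 1.75 FPKM in control at day 5. Irgm2, an interferon-inducible GTPase, stood at 4.22 FPKM in DTA and 0.875 FPKM in control at day 1, and at 10.3 FPKM in DTA and 0.623 FPKM in control at day 5.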

How the data were processed

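Per the labels' protocols, RNA of whole retinas was isolated with Sepazol and sequenced after preparation with Illumina's mRNA-seq kit. The deposited tables give FPKM per gene with a lower and an upper bound and a status, per the file headers. Tools named in the submitters' processing notes are Cufflinks 2.1.1, CASAVA 1.8.2 and bcl2fastq 1.8.4, with mm9 as build and no role stated. The sources used here do not give the aligner, annotation or strand setting.

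Lines of status FAIL (10 in DTA and 25 in control at day 1, 13 in DTA and 7 in control at day 5) or HIDATA (1 in each control) were read as missing, and symbols with several loci were summed. FPKM of the partial day 1 DTA table were used as deposited. The files hold no counts: depth came from the commonest low product of FPKM and transcript length, taken as 1 fragment, in genes with 1 transcript of more than 1500 bases. Fragments per chemokine came from the midpoint of the bounds, since the bounds are not centred on the FPKM of several short transcripts (the midpoint is 78.1% of FPKM for Ccl2 and 66.9% for Ccl5 in DTA at day 1). Locus starts have 1 added, because 10250 of 21391 loci match the annotation that way and 642 without.

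Differences are of log2(FPKM + 1), folds are given where both values reach 1 FPKM, and the scripts ran in Python 3.11.15 with pandas 2.3.3 and numpy 2.4.6 and were tested on simulated data. With 1 library per group there is no replicate error within a group, and no test was made. Named from each gene list were genes of at least 1 FPKM in one library, up to 4 by size at day 5, and every gene called, cell type lists apart. Some cell markers with a value in all tables and defining markers at or near 0 were named besides. Gnat1, Nrl, Ly6c2, some receptors of the 10 chemokines and Tnfaip3, Tnf and Il1b were also named, after their values were seen. The other list genes enter the counts, medians and sums without being named, and a few genes that the rule takes were left out. The genes and lists were chosen with earlier results of these data known.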

Additional observations from a re-analysis of the deposited data

How the results depend on the processing

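No paired analysis was possible because each group has 1 library and the labels give no replicate numbers; for the same reason no library could be left out within a group. Of the member differences recomputed under other settings, 317 kept their call or lack of one, 14 were newly called, 1 was no longer called and 0 called values changed sign. The count of chemokines called higher in DTA at day 1, 2 as reported, was 4 with a floor of 1 FPKM and 4 with none. With the midpoint of the bounds in place of FPKM, an alternative chosen after seeing the data, it was 1. At day 5 the count of 2 was 6 with a floor of 1 FPKM and 6 with none. These 2 settings are the same rule, since a difference of 1 needs at least 1 FPKM in the higher library. All 14 new calls came from them, so each difference newly called is counted under both. Calls at the floor of 1 FPKM fell with a pseudocount of 5, to 2 in place of 4 at day 1 and to 2 in place of 6 at day 5, since a larger pseudocount shrinks differences of low genes. Between the DTA libraries, 3 became 5 with a pseudocount of 0.1. Over all genes, a pseudocount of 5 gave 35 higher in place of 54 at day 1, 350 in place of 667 at day 5 and 42 in place of 67 between DTA libraries, which became 103 with a floor of 1 FPKM or none. At day 1, the other day's control gave 85 higher and 10 lower, the mean of both controls 7 lower in place of 16, no rule on the controls 34 lower, and bound midpoints 30 higher and 9 lower. Bound midpoints gave 42 higher in place of 80 and 71 lower in place of 160 between controls. Median ratio scaling shifted day 5 differences by −0.26 and differences between DTA libraries by −0.13, with 412 higher and 261 lower in place of 667 and 175 at day 5, and left the 2 chemokines called. The sign of Ccl9 at day 1, not called, differed in 2 of 10 settings, and that of Ccl6 between controls in 1 of 7. No fragment counts were used in any call, and depth limits Ccl11 and the control values most.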

Other observations

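The estimated fragments of several chemokines were alike in both DTA libraries although the depth was 98.8 M fragments at day 1 and 28.8 M at day 5. Ccl2 had about 522 in DTA at day 1 and 534 in DTA at day 5, Ccl5 had 187 in DTA at day 1 and 189 in DTA at day 5, and Ccl6 had 34 in DTA at day 1 and 37 in DTA at day 5. Ccl9 had about 236 in DTA at day 1 and 47 in DTA at day 5, and Ccl12 had 90 in DTA at day 1 and 40 in DTA at day 5.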
